A study of Rattus norvegicus with 16 samples.

Results

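The effect of cyclic hyperoxia on retinal expression was measured in Sprague Dawley (SD) rats on post-natal day 6, as the difference between 2 arrays of oxygen-exposed pups and 2 arrays of pups kept in room air. These 4 of the 16 arrays of the series were chosen by strain, exposure and age in their titles, and the 15097 of 27342 probe sets with 1 gene symbol were followed, which gave 14324 genes. No measured value entered this choice. The exposed litters, with their mothers, entered an oxygen chamber within 12 h of birth, where the gas switched every 24 h between 80% and 21% oxygen, and controls of the same age stayed in room air. No transgene, deletion or drug is named for any group. Every array held total retinal RNA pooled from several pups, and the series' design names 3 rats and 2 litters without settling whether they make up 1 pool or both. The labels state neither the oxygen phase that preceded collection nor a litter, hybridisation or scan for any replicate number, so every p value here rests on the spread between pools of RNA alone. Values from SD pups on day 5 and from Fischer (F344) pups on day 6, each again 2 oxygen-exposed and 2 room air arrays, are given where the day 6 effect in SD was tested against them. SD rats are generally described as susceptible to oxygen-induced retinopathy and F344 rats as resistant.

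In oxygen-induced retinopathy, breathing high oxygen slows the spread of blood vessels over the immature retina, and the poorly vascularised tissue becomes short of oxygen once the supply falls. Cells read oxygen through prolyl hydroxylases, which in the presence of oxygen mark the alpha subunits of the hypoxia-inducible factors (HIF) for destruction by the von Hippel-Lindau protein. When oxygen is scarce the subunits accumulate, pair with ARNT and bind DNA at hypoxia response elements, which raises the transcription of genes for glucose uptake, glycolysis, lactate export, mitophagy and vessel growth.

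The values are log2 expression values, normalized together by the authors across all 16 arrays. Array medians lay between 5.452 and 5.524. Values below 5.45 are called dim here, because folds shrink near an array's background. The arrays of a group correlated with r from 0.9869 to 0.9965 over genes. The F344 day 6 hyperoxia pair was at the low end, with 70 genes over 2-fold apart, and replicate 2 of that pair had the narrowest interquartile range, 2.813. The SD day 6 hyperoxia arrays correlated at 0.9961, with 1 gene over 2-fold apart, and the SD day 6 room air arrays at 0.9917, with 34. Room air replicate 1 was higher in cell cycle genes, such as Top2a with 9.35 against 8.31, and replicate 2 in genes of the pigment epithelium and ciliary body, such as Tyrp1 with 7.44 against 6.34. Retinal markers were present, with 21 of 23 rod genes above 5.45 on the 4 arrays on average, and of the markers of tissue that dissection can carry over, 7 of 22 genes of pigment epithelium, choroid and ciliary body, 7 of 20 of red blood cells, 1 of 14 of lens and 1 of 20 of skeletal muscle were above that value.

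On day 6, 400 of 14324 genes (2.79%) differed between hyperoxia and room air in SD retina, called here at a Benjamini-Hochberg adjusted p under 0.05 in limma. Of these, 319 (2.23%) were higher in hyperoxia and 81 (0.565%) were lower. The 6 largest called rises, in order, were those of Cox4i2 (cytochrome oxidase), Gstm5 (glutathione conjugation), H2ac21 (a histone), Polr2d (RNA polymerase II), Fth1 (iron storage) and Cox4i1 (cytochrome oxidase). The 5 largest called falls were those of Cntnap4 and Unc13c (neuronal adhesion and synapses), Slc38a5 (an amino acid transporter of vessels), Lrp1b (a lipoprotein receptor family member) and Tek (endothelium). Of these, Unc13c alone was not dim in hyperoxia. Rises of more than 2-fold numbered 19 among called genes, and no called fall reached 2-fold. The median change over all genes was -0.01 on the log2 scale, and 79.8% of the calls were rises. That share depended on scaling: with each array centred on its median 62.4% of calls were rises (280 higher, 169 lower), and with quantile normalization applied again 64.4% (304 higher, 168 lower), while the median of all genes shifted by -0.02 and -0.0045. All 400 called genes had arrays that did not overlap between the groups, as did 7165 of all genes (50%).

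The number of calls rested on all 4 arrays. Leaving out either hyperoxia array or room air replicate 1 left 0 calls in limma, with 836 to 1266 genes higher and 501 to 1033 lower at an unadjusted p under 0.05, and without room air replicate 2 there were 172 higher and 49 lower. In these fits the lone array of a group is assumed to vary like the other groups. No called gene kept its call in more than 1 of these 4 fits. Without either F344 day 6 hyperoxia array, which enter only the estimate of the spread, 618 genes were called higher and 376 lower.

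**Figure D1:**
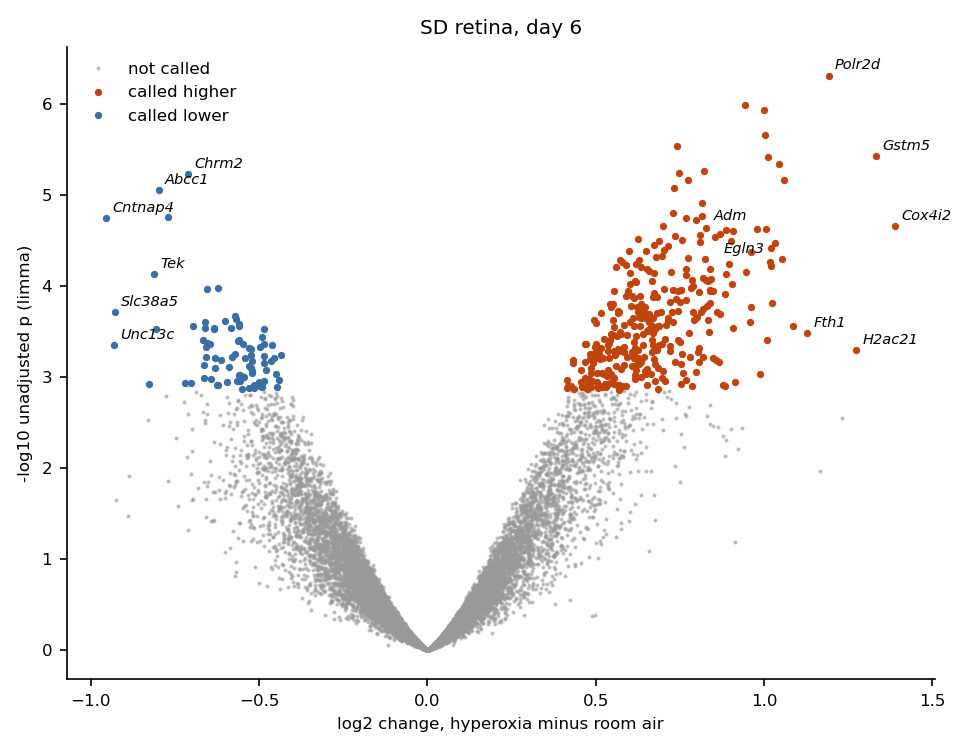
Each point is 1 of 14324 genes in SD retina on day 6. The horizontal axis is the log2 change, hyperoxia minus room air, and the vertical axis is -log10 of the unadjusted limma p. Orange points are the 319 genes called higher and blue points the 81 called lower. Rises reach 1.39 (Cox4i2) and falls -0.95 (Cntnap4).

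Genes that HIF is known to induce were prominent among the rises. Of 50 measured HIF targets outside glycolysis, 8 rose (16%, against 2.23% of all genes) and 0 fell, with 19 higher and 1 lower at an unadjusted p under 0.05. The list's median change was 0.24 on the log2 scale. The 8 were Egln3, Adm, Fam162a, Anxa2, P4ha2, Higd1a, Bhlhe40 and Pdk1. After the trend with gene size described further on was removed, 8 members were again called, with Slc16a3 in place of Bhlhe40.

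Egln3, which encodes the prolyl hydroxylase PHD3, an oxygen sensor that is itself a HIF target, had log2 values of 6.86 and 7.12 in hyperoxia and 6.02 and 6.24 in room air. All hyperoxia values exceeded all room air values, as in every called rise. The change was 0.85 ± 0.15 (SE, n = 2 arrays per group; limma adjusted p = 0.0125), or 1.81-fold. The paralogous sensors Egln1 and Egln2 changed by 0.27 (adjusted p = 0.464) and 0.48 (adjusted p = 0.103), and neither passed the test. Of 13 genes of oxygen sensing, Egln3 was the one called (7.69%, against 2.79% of all genes), and the median was -0.17. Hif1a, the HIF-1 alpha subunit, was at 11.01 and 11.17 in hyperoxia and 11.51 and 11.54 in room air, a difference of -0.43 with an adjusted p of 0.0818.

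P4ha2, a collagen prolyl 4-hydroxylase subunit, was at 6.62 and 6.64 in hyperoxia against 5.81 and 5.98 in room air. It rose by 0.74 ± 0.15 (adjusted p = 0.0187), whereas its paralogue P4ha1 differed by -0.02 (adjusted p = 0.97); the difference between the paralogues was not tested. Pdk1, the kinase that shuts pyruvate out of the citric acid cycle, was at 8.73 and 8.84 against 8.45 and 8.25, a rise of 0.44 ± 0.11 that passed narrowly (adjusted p = 0.0491). Mitochondrial proteins of the hypoxic response were also higher. Higd1a, a factor of respiratory supercomplexes, rose by 0.74 ± 0.13 (adjusted p = 0.0125) and Fam162a, a mitochondrial protein linked to hypoxic cell death, by 0.78 ± 0.15 (adjusted p = 0.0171). Mgarp, a mitochondrial transport protein, rose by 0.53 ± 0.12 (adjusted p = 0.0276, or 0.0728 with the trend with gene size removed). The mitophagy receptor Bnip3 was at 10.82 and 10.79 against 10.59 and 10.30, a difference of 0.36 that did not pass (adjusted p = 0.123).

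Cox4i2, the cytochrome oxidase subunit isoform used in low oxygen, had the largest rise of all called genes. Its values were 7.51 and 7.71 in hyperoxia and 5.95 and 6.49 in room air. The room air arrays lay further apart than those in hyperoxia. The change was 1.39 ± 0.23 (adjusted p = 0.0123), or 2.62-fold. The widely expressed isoform Cox4i1 was higher as well, at 10.29 and 10.29 against 8.87 and 9.54 (change 1.08 ± 0.23, adjusted p = 0.0231). Here too the room air arrays differed most between themselves. The SD day 6 room air mean was the lowest of the 8 groups for Cox4i2, 6.22, and for Cox4i1, 9.20. The other room air means ran from 6.97 to 7.45 for Cox4i2 and from 9.24 to 9.84 for Cox4i1.

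Among 22 genes of glycolysis, 2 rose (9.09%, against 2.23% of all genes) and 0 fell, with 4 higher and 0 lower at an unadjusted p under 0.05 and a median of 0.14. Pfkl, the liver-type phosphofructokinase, was at 9.77 and 9.72 against 9.08 and 9.19 and rose by 0.61 ± 0.14 (adjusted p = 0.0309). Ldhb, the lactate dehydrogenase subunit of oxidative tissues, rose by 0.69 ± 0.15 (adjusted p = 0.0286). Classical HIF targets of the pathway had higher values in hyperoxia without passing the test. Ldha, the subunit that favours lactate formation, differed by 0.20 (adjusted p = 0.377) and Pgk1, a phosphoglycerate kinase, by 0.24 (adjusted p = 0.395). Pfkfb3, which makes an activator of phosphofructokinase, differed by 0.30 (adjusted p = 0.25). Hk2, a hexokinase, was at 6.99 and 7.25 in hyperoxia and at 7.29 and 6.10 in room air, so its groups overlapped. Of 17 genes of glycogen metabolism, 1 was called (5.88%, against 2.79% of all genes). This was Pygl, the liver-type glycogen phosphorylase that releases glucose from glycogen, at 7.87 and 7.95 against 7.16 and 7.08 (change 0.79 ± 0.15, adjusted p = 0.0162).

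The lactate and glucose transporters Slc16a3 and Slc2a1, both HIF targets, had higher values in hyperoxia without passing the test. Slc16a3, the lactate exporter MCT4, was at 8.25 and 8.42 in hyperoxia and 7.79 and 7.20 in room air, a difference of 0.84 ± 0.23 (adjusted p = 0.0588, or 0.0489 with the trend with gene size removed). Slc2a1, the glucose transporter GLUT1, was at 9.75 and 9.86 against 9.56 and 9.08, a difference of 0.48 ± 0.21 (adjusted p = 0.223). In both genes the arrays did not overlap, as in 50% of all genes, and the room air pair was the more spread.

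The day 6 effect was set against the day 5 effect of the same strain, which uses other arrays. On day 5, 9 genes were called lower in hyperoxia (0.0628% of genes) and 0 higher in limma, with 667 genes higher at an unadjusted p under 0.05. The effects differed between the days in 16 genes (0.112%), and all 16 were below room air on day 5 and above it on day 6. No gene was called with the opposite difference, and 180 had one at an unadjusted p under 0.05. Of the 9 genes called on day 5, 7 were among these 16. Of the 16, 10 were called higher on day 6, and 8 were HIF targets outside glycolysis. The day difference and the day 6 effect share the SD day 6 arrays, so they are not separate evidence.

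Slc16a3 showed the largest difference between days. On day 5 it was at 5.88 and 6.20 in hyperoxia against 7.88 and 7.35 in room air, a change of -1.58 ± 0.23, and the day 6 effect exceeded this by 2.41 ± 0.32 (adjusted p = 0.00586). Egln3 on day 5 was at 4.87 and 5.09 against 6.28 and 6.07, and the difference between its day 6 and day 5 effects was 2.05 ± 0.21 (adjusted p = 0.000623). For Pdk1 the day 5 values were 7.47 and 7.62 against 8.54 and 8.49, and the difference was 1.41 ± 0.16 (adjusted p = 0.00134). In each of these genes the hyperoxia arrays lay below the room air arrays on day 5 and above them on day 6. Egln3 and Pdk1 were the genes whose day difference was called with every one of the 16 arrays left out in turn, while the number of genes called ranged from 2 (without SD day 5 hyperoxia replicate 1) to 20.

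The other genes with a called day difference span fuel use, growth factors and metal binding. Ak4, a mitochondrial adenylate kinase, changed by -1.12 on day 5 (adjusted p = 0.00501) and was at 7.08 and 7.22 against 6.68 and 6.80 on day 6, a difference of 0.41 that did not pass (adjusted p = 0.14). Igfbp2, a binding protein of insulin-like growth factors, was at 5.59 and 5.47 against 6.52 and 6.41 on day 5 and at 7.01 and 7.22 against 6.23 and 6.31 on day 6. Its day 6 rise was 0.84 ± 0.17 (adjusted p = 0.0198) and its day difference 1.78 ± 0.24 (adjusted p = 0.00586). Igfbp2 was the only one of 15 genes of the insulin-like growth factor system called on day 6 (6.67%, against 2.79% of all genes). Igf1, a growth factor needed for retinal vessel growth, differed by -0.33 on that day (adjusted p = 0.17). Gipr, the receptor of the gut hormone GIP, was at 6.82 and 6.48 against 5.73 and 5.46 on day 6 and rose by 1.05 ± 0.19 (adjusted p = 0.0141), with a day difference of 1.64. Cox4i2, Pygl and P4ha2 had day differences of 2.13, 1.49 and 1.20.

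Vegfa, the main growth factor of retinal vessels, was among these 16 genes through its day 5 level. It was at 7.92 and 8.21 in hyperoxia against 9.14 and 9.01 in room air on day 5, a fall of 1.01 on the log2 scale (adjusted p = 0.00501). On day 6 it was at 9.19 and 9.29 against 9.08 and 8.93, so the hyperoxia arrays lay just above those in room air. The day 6 difference was 0.23 ± 0.13 (1.18-fold; adjusted p = 0.372), and the day difference was 1.24 ± 0.19 (adjusted p = 0.0116).

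**Figure D2:**
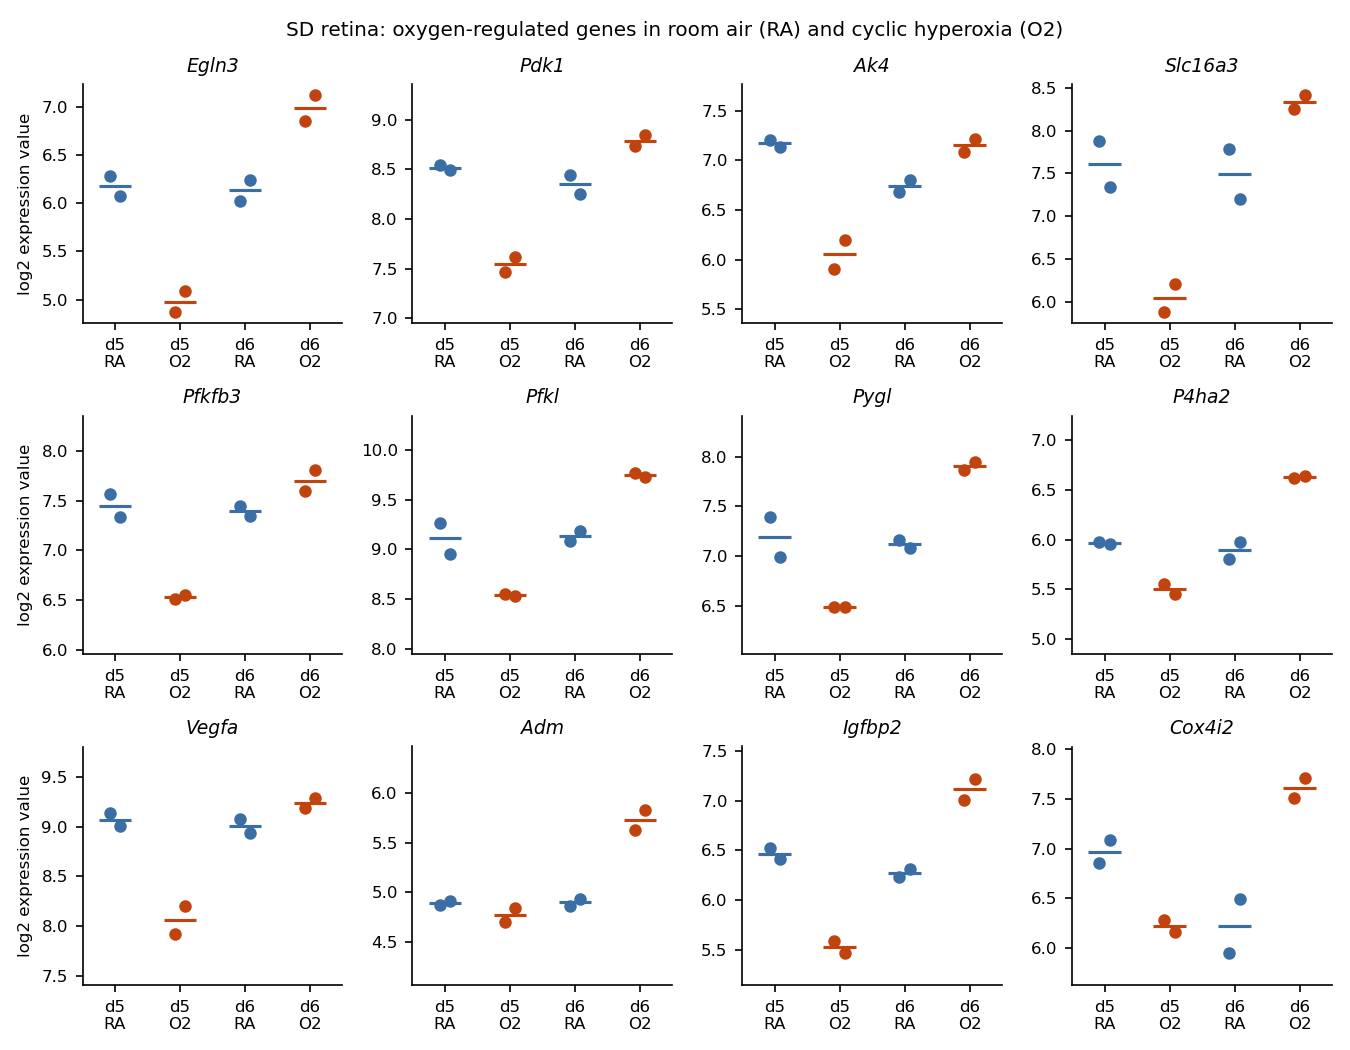
Log2 expression values of 12 oxygen-regulated genes in SD retina, 1 panel per gene, with each array as a point and the mean of 2 arrays as a line. Blue is room air (RA), orange is cyclic hyperoxia (O2), on day 5 (d5) and day 6 (d6). In every panel the day 5 hyperoxia points lie below the day 5 room air points and the day 6 hyperoxia points above the day 6 room air points. All genes but Adm were chosen from those with a called day difference, which all had means in this order, so the shared pattern follows from the choice. The day difference of Adm was not called. Each panel has its own vertical range.

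**Figure D3:**
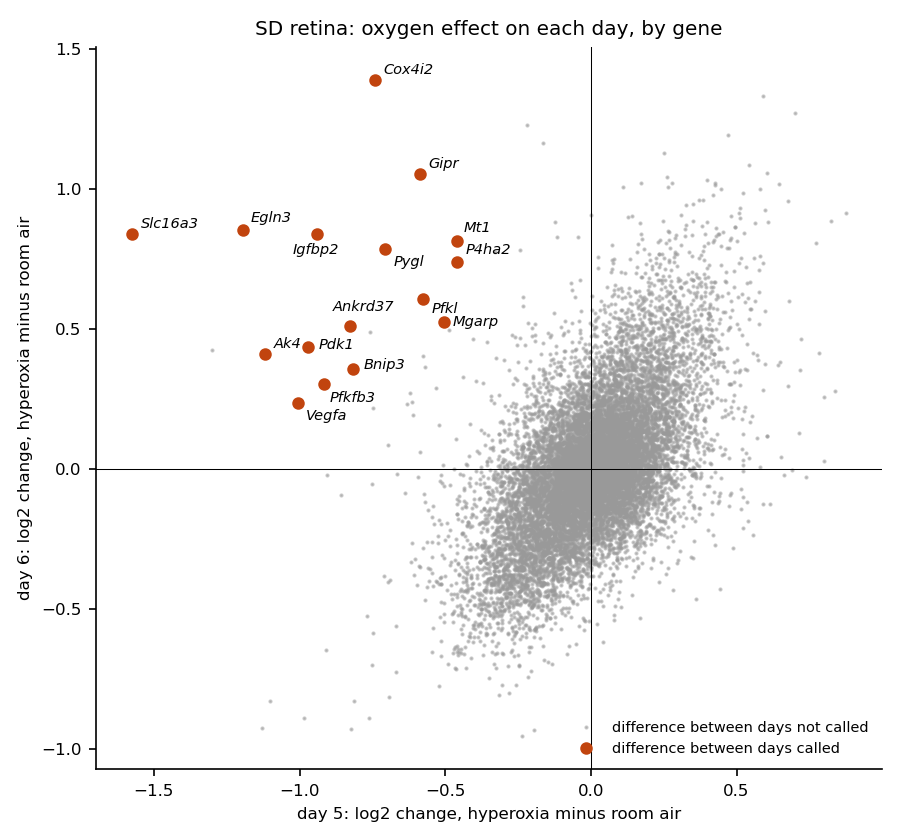
Each point is 1 of 14324 genes in SD retina, with the log2 change in hyperoxia on day 5 on the horizontal axis and on day 6 on the vertical axis. The 16 genes whose effect differed between the days are orange and named. All 16 lie in the upper left, below 0 on day 5 and above 0 on day 6.

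HIF is known to bind a short core of letters, of which ACGTG is 1 form and the only one searched here. Promoter windows of these genes, 250 bases before to 50 after the start in RefSeq (build GRCr8), were therefore searched for ACGTG on either strand, which on the printed strand reads ACGTG or CACGT; the palindrome CACGTG holds both. A window existed for 14 of the 16 genes, and 9 of these held the motif (64.3%), against 22.8% of the 11806 tested genes with a window, 32% of 269 genes called higher on day 6 and 22.1% of 68 called lower. A match of these letters is a description and not a bound site. Of the 9 windows with the motif, 7 are shown to let the motif be seen in its place, a choice made with the results known; those of Mt1 and Mgarp hold it once each and are not shown. The windows are read in the direction of the gene with the motif in capitals, and that of Egln3 is shown as the window without a match whose gene had the smallest p. The windows are of Pdk1 (chr3:77113264-77113563, plus strand), Igfbp2 (chr9:81864561-81864860, plus strand), Pygl (chr6:94476170-94476469, minus strand), Bnip3 (chr1:203154913-203155212, minus strand), Ankrd37 (chr16:53001257-53001556, plus strand), Pfkfb3 (chr17:71944683-71944982, plus strand), P4ha2 (chr10:38743644-38743943, plus strand) and Egln3 (chr6:77410966-77411265, minus strand).
Pdk1: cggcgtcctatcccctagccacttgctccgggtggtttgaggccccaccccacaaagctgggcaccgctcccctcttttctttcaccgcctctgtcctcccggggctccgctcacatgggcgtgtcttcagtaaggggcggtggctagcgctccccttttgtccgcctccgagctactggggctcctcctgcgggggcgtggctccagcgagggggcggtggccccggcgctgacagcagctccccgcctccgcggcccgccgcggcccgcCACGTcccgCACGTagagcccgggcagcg
Igfbp2: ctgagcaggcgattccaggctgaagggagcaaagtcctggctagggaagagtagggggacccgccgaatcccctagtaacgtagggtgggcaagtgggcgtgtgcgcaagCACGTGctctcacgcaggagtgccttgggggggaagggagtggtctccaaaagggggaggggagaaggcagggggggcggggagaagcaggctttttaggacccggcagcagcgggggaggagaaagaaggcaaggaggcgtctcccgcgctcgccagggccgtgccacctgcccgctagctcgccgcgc
Pygl: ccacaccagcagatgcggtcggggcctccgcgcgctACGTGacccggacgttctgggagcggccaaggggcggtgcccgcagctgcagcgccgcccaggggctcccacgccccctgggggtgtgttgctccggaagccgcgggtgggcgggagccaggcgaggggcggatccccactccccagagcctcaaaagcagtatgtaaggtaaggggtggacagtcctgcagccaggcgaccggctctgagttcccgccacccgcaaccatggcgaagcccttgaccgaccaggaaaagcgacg
Bnip3: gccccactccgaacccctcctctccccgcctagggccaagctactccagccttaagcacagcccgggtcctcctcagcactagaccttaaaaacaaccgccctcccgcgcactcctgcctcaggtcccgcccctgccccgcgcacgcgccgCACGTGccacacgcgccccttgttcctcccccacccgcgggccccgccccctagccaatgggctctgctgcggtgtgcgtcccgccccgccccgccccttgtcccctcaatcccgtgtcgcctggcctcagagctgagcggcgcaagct
Ankrd37: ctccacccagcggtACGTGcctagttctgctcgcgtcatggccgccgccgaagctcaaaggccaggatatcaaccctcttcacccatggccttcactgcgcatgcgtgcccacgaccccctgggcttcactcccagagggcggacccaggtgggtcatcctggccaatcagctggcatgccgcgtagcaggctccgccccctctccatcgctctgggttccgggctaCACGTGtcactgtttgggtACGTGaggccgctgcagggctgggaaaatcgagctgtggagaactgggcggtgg
Pfkfb3: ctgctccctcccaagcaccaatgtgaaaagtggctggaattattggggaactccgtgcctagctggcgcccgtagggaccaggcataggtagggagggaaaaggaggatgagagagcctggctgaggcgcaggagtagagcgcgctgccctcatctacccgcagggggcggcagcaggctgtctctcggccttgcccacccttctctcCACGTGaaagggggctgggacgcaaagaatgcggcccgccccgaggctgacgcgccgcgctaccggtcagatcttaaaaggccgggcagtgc
P4ha2: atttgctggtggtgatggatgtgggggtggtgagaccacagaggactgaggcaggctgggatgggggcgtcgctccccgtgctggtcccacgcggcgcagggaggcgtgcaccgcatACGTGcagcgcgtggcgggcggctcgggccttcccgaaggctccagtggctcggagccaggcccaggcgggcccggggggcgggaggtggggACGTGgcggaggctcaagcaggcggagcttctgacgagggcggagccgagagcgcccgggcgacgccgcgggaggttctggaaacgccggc
Egln3: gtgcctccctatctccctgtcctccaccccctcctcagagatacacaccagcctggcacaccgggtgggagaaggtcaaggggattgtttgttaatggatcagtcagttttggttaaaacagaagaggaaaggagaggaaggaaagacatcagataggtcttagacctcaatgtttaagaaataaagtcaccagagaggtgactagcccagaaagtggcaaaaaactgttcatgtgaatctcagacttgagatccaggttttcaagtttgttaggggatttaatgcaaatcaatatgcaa
The first match begins 22 bases after the start in Pdk1, and 140 bases before it in Igfbp2, 214 in Pygl, 99 in Bnip3, 236 in Ankrd37, 42 in Pfkfb3 and 133 in P4ha2. The palindrome occurs in the windows of Igfbp2, Bnip3, Ankrd37 and Pfkfb3. Ankrd37, an ankyrin repeat protein, had a day difference of 1.34 (adjusted p = 0.0119), Bnip3 of 1.18 (adjusted p = 0.0106) and Pfkfb3 of 1.22 (adjusted p = 0.0155).

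Of 48 angiogenic ligands and receptors, 1 rose and 1 fell, against 2.23% and 0.565% of all genes, and 2 were higher and 8 lower at an unadjusted p under 0.05, with a median of -0.06. The rise was that of Adm, the peptide hormone adrenomedullin, and the fall that of Tek, an endothelial receptor whose values are given with the endothelial markers. Adm was at 5.63 and 5.83 in hyperoxia and at 4.86 and 4.94 in room air, where it was dim. The groups were clearly apart, and the change was 0.83 ± 0.14 (1.77-fold; adjusted p = 0.0123). On day 5 Adm differed by -0.12 and was dim on all 4 arrays, and its difference between days did not pass (0.94 ± 0.20, adjusted p = 0.169). Its receptor component Calcrl differed by -0.22 (adjusted p = 0.481). Angpt2, an antagonist of the receptor Tek that loosens vessels, was at 5.88 and 5.72 against 5.54 and 5.65 (difference 0.21, adjusted p = 0.504). Epo, the red cell hormone, was dim on all 4 arrays, at 4.87 and 4.56 against 4.57 and 4.54, and Edn2, an endothelin, was dim likewise, with a difference of -0.09 (adjusted p = 0.734).

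Tip cells are the migrating endothelial cells at the front of a growing vessel, and 2 of 15 of their genes rose, Adm and Cxcr4 (13.3%, against 2.23% of all genes), with 4 higher and 2 lower at an unadjusted p under 0.05. With the trend with gene size removed, 2 were called higher and 1 lower, Prnd. Cxcr4, the receptor of the chemokine CXCL12, was at 8.79 and 8.74 against 7.79 and 8.09, a change of 0.82 ± 0.15 (adjusted p = 0.0141), and it is not confined to endothelium. Its SD day 6 room air mean, 7.94, was the lowest of the 8 groups, and the other means ran from 8.46 to 9.18. Dll4, the Notch ligand of tip cells, differed by 0.42 (adjusted p = 0.114), and Esm1, a secreted tip cell proteoglycan, by 0.28 while dim (adjusted p = 0.253). The growth factor midkine, Mdk, was at 8.76 and 8.58 against 7.47 and 7.81 and rose by 1.03 ± 0.18 (adjusted p = 0.0125). Its SD day 6 room air mean, 7.64, was likewise the lowest of the groups, with the other means from 8.20 to 8.67.

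Of 31 measured endothelial markers, 4 fell (12.9%, against 0.565% of all genes called lower) and 0 rose, 10 were lower and 1 higher at an unadjusted p under 0.05, and the median was -0.17. In RNA of whole retina, fewer cells of a type and less RNA per cell cannot be told apart. The 4 were Slc38a5, an amino acid transporter of retinal vessels, Tek, the angiopoietin receptor TIE2, Emcn, an endothelial sialomucin, and Adgrl4, an adhesion receptor. Tek was at 4.50 and 4.52 in hyperoxia and 5.33 and 5.32 in room air, a change of -0.81 ± 0.15 (adjusted p = 0.0151). Slc38a5 was at 4.69 and 4.08 against 5.33 and 5.30, a change of -0.93 ± 0.19 (adjusted p = 0.021). Tek, Slc38a5 and Emcn were dim in both groups, which limits what their folds show. Only 4 of the 31 markers were above 5.45 on average. Emcn fell by 0.64 and Adgrl4 by 0.58 on the log2 scale (adjusted p = 0.0235 and 0.0233).

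On day 5 the endothelial list's median was -0.15, with 1 of 31 members called lower and 0 higher. No member had a called difference between days. As 0.112% of all genes had one, this count does not show that the days were alike. Adgrl4 was the one gene of all tested that was called in the same direction on both days in SD, with -0.75 on day 5 (adjusted p = 0.0365). The pan-endothelial cadherin Cdh5 differed by -0.29 on day 6 (adjusted p = 0.228) and the tight junction gene Cldn5 by -0.28 (adjusted p = 0.551). With the trend with gene size removed, Slc38a5 and Tek were still called, and Emcn and Adgrl4 were not (adjusted p = 0.0691 and 0.0831). Of 16 genes of pericytes and smooth muscle, the mural cells of vessels, 0 were called in limma, against 2.79% of all genes. Of these 16, 1 was higher and 1 lower at an unadjusted p under 0.05. The pericyte signalling gene Rgs5 was at 6.42 and 7.02 against 7.56 and 7.73, a difference of -0.93 ± 0.36 (adjusted p = 0.179).

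Of 41 antioxidant enzymes and targets of NRF2, the transcription factor of the oxidative stress response, 8 rose (19.5%, against 2.23% of all genes) and 0 fell. In all, 29 members were above 0 and 12 below, 20 were higher and 0 lower at an unadjusted p under 0.05, and the median was 0.30. Gstm5, a glutathione transferase, was at 8.68 and 8.56 in hyperoxia and 7.27 and 7.32 in room air. Its groups were far apart relative to their spread, and the change was 1.33 ± 0.19 (2.52-fold; adjusted p = 0.00758). Gsta4, the transferase of lipid peroxidation products, was at 7.90 and 8.02 against 6.86 and 7.04 and rose by 1.01 ± 0.22 (adjusted p = 0.0276). Fth1, the ferritin heavy chain that stores iron, was at 10.52 and 10.48 against 9.29 and 9.46 and rose by 1.13 ± 0.25 (adjusted p = 0.0247). Gstm5, Gsta4 and Fth1 each had their lowest mean of the 8 groups in SD day 6 room air.

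The other 5 antioxidant genes that rose were the metallothioneins Mt1 and Mt2A, which bind zinc and copper, the peroxiredoxins Prdx1 and Prdx3, which reduce peroxides, and Taldo1 of the pentose phosphate pathway. Mt1 was at 9.06 and 8.99 against 8.26 and 8.17, a change of 0.82 ± 0.13 (adjusted p = 0.0123), and it was the one of these 8 with a called difference between days, 1.27 ± 0.19 (adjusted p = 0.0106). The best known NRF2 targets were not called, with Hmox1 at 0.09 and Nqo1 at 0.08 while dim and Gclm at -0.11. Near-identical copies make single glutathione transferases uncertain, since their probes can share targets. In the fit without the gene size trend 5 of the list were called higher, with Gstm5 at 1.25 and Fth1 at 1.06.

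The list with most rises was that of cytosolic ribosomal proteins, with 17 of 61 (27.9%, against 2.23% of all genes) higher and 0 lower, 40 higher and 0 lower at an unadjusted p under 0.05, and a median of 0.45. Rps14, of the small subunit, was at 9.86 and 9.90 in hyperoxia and 8.61 and 9.11 in room air (change 1.02 ± 0.18, adjusted p = 0.0129). Rps3 was at 11.78 and 11.61 against 10.74 and 11.02 (change 0.82 ± 0.15, adjusted p = 0.016). In both genes room air replicate 2 lay nearer to hyperoxia than replicate 1. Pseudogenes of ribosomal proteins can share probes with them, so single members are uncertain.

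Subunits of the respiratory chain, which is encoded in large part by small nuclear genes, had 9 of 68 genes called higher (13.2%, against 2.23% of all genes) and 0 lower, with 38 higher and 0 lower at an unadjusted p under 0.05, and a median of 0.35. Besides Cox4i1 these were Atp5mg of ATP synthase, Cox7a2 and Cox7b of cytochrome oxidase, Ndufa2, Ndufa9, Ndufb7 and Ndufs5 of complex I, and Sdhc of complex II. Their changes lay between 0.72 (Cox7b) and 1.08 (Cox4i1). SD day 6 room air had the lowest mean of the 8 groups for Cox4i1, Atp5mg and Cox7b, and not for Ndufa9 and Ndufs5. Ribosome biogenesis had 4 of 33 genes called higher (12.1%, against 2.23% of all genes), or 2 with the trend with gene size removed, while 12 members were below 0 and the median was 0.08. One was Polr1c, a subunit of RNA polymerases I and III, which rose by 0.90 ± 0.17 (adjusted p = 0.0168). Polr2d, an RNA polymerase II subunit, had the smallest p of all genes, at 9.52 and 9.58 against 8.20 and 8.52 (change 1.19 ± 0.14, adjusted p = 0.00568), and Psma6, a proteasome subunit, was at 10.53 and 10.21 against 9.19 and 9.52 (change 1.01 ± 0.15, adjusted p = 0.00758).

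These gene groups differ from the rest in gene size. Over the 14299 genes with a genomic span in RefSeq, the day 6 change ran against log10 span with Pearson's r = -0.314 and Spearman's rho = -0.335 across genes, which are not independent replicates. Called rises had a median span of 8.75 kb and called falls of 102 kb, against 18 kb for all genes, and ribosomal protein genes of 3.4 kb. The shortest tertile of genes held 171 rises and 5 falls, and the longest tertile 24 rises and 66 falls. The same trend was present in SD on day 5 (r = -0.315) and in F344 on day 6 (r = -0.232). It also differed between single arrays: the shortest tertile exceeded the longest by 0.137 and 0.0505 in the SD day 6 hyperoxia arrays and fell short of it in room air, at -0.089 and -0.0558, while F344 day 6 hyperoxia replicate 2 had 0.243 and its partner 0.0214. The labels hold no RNA quality values.

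With the trend with span removed from every array, an alternative added after the data were seen, 210 genes were called higher and 38 lower, among them 193 of the 319 rises and 29 of the 81 falls. The correlation with span was then -0.045. Ribosomal protein genes had 11 rises in place of 17 and respiratory chain genes 5 in place of 9, with medians of 0.37 and 0.28. All 16 genes that differed between days kept that call.

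**Figure D4:**
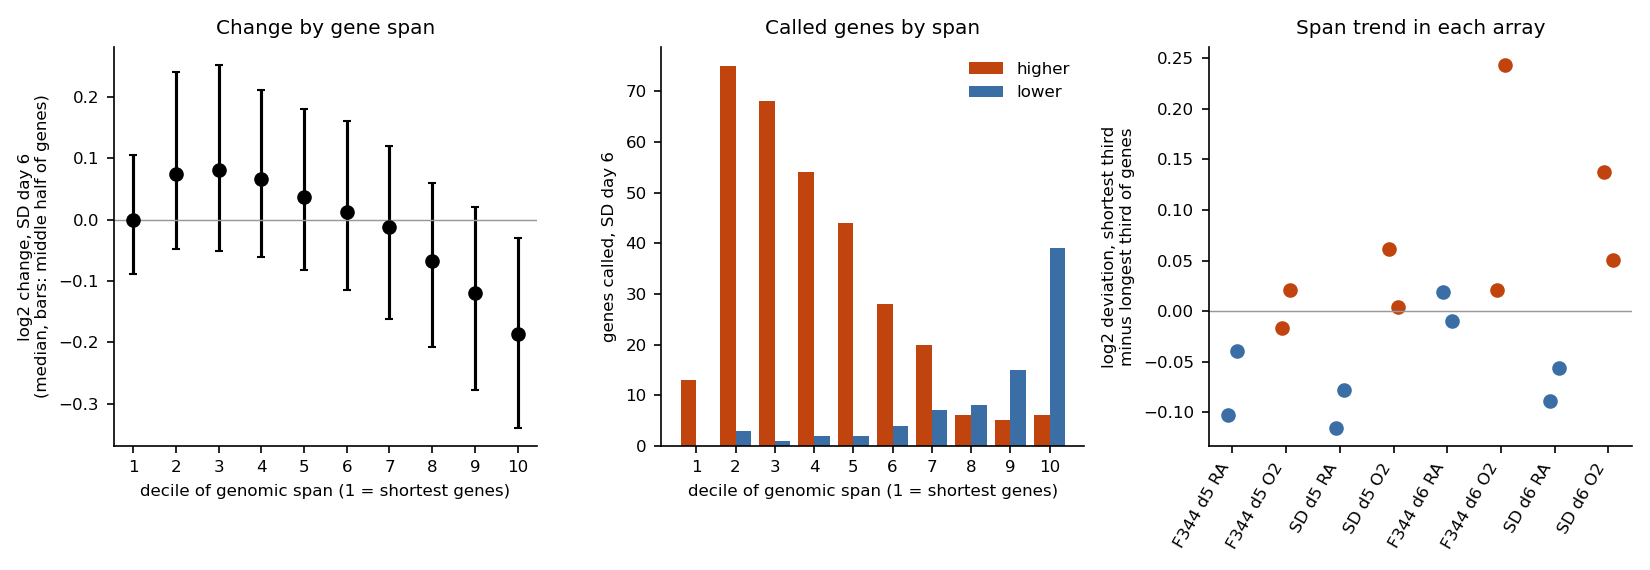
Left, median log2 change in SD retina on day 6 for 10 deciles of genomic span, with bars over the middle 50% of genes. Centre, genes called higher (orange) and lower (blue) in each decile. Right, for each array, the median deviation of the shortest tertile of genes minus that of the longest (log2), orange for hyperoxia and blue for room air. The largest number of rises, 75, is in decile 2 and the largest number of falls, 39, in decile 10; SD hyperoxia arrays lie above SD room air arrays on both days.

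Several of the largest falls were in genes known from neurons. Cntnap4, a neurexin-family adhesion protein of interneurons, was at 5.14 and 5.01 in hyperoxia and 6.10 and 5.96 in room air, a change of -0.95 ± 0.16 (adjusted p = 0.0123). Unc13c, a priming factor of synaptic vesicles, was at 5.79 and 5.72 against 6.73 and 6.65, a change of -0.93 ± 0.21 (adjusted p = 0.0288). Chrm2, a muscarinic acetylcholine receptor, was at 5.36 and 5.38 against 6.12 and 6.04, a change of -0.71 ± 0.11 (adjusted p = 0.00758). In each of the 3 the replicates were close together. Cntnap4 and Chrm2 were dim in hyperoxia, which limits what their folds show. The SD day 6 room air mean of Chrm2, 6.08, was the highest of the 8 groups, and the other means ran from 5.31 to 5.80. Abcc1, an exporter of glutathione conjugates, fell by 0.80 ± 0.12 (adjusted p = 0.00857), from 7.52 and 7.61 in room air to 6.75 and 6.78. Prkca, a kinase that marks rod bipolar cells, was at 6.31 and 6.77 against 7.17 and 7.52 (change -0.81 ± 0.17, adjusted p = 0.0235).

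As whole lists, synaptic and receptor genes were lower on the median with few calls. Of 35 genes of synaptic vesicles and release, 1 fell (2.86%, against 0.565% of all genes), the priming factor Unc13b (-0.52 ± 0.12, adjusted p = 0.0322). In this list 11 were lower and 0 higher at an unadjusted p under 0.05, with a median of -0.16. Of 36 receptors of glutamate, GABA and glycine, 1 fell (2.78%, against 0.565% of all genes). This was the metabotropic receptor Grm5 (-0.56 ± 0.13, adjusted p = 0.0277), dim in both groups. In the receptor list 14 were lower and 2 higher at an unadjusted p under 0.05, with a median of -0.24 and a median span of 220 kb. With arrays centred on their medians the synaptic list had 4 called falls and the receptor list 3, and with quantile normalization applied again each had 3. With the trend with span removed neither list had a called gene, and the medians were -0.08 and -0.08. Of the largest falls, Cntnap4, Chrm2 and Abcc1 kept their calls in that fit, at -0.76, -0.56 and -0.65 (adjusted p = 0.0269, 0.0182 and 0.0151), and Unc13c and Prkca did not (adjusted p = 0.0597 and 0.053).

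Few markers of retinal cell classes were called. Of 15 lists of cell markers, 11 had 0 called genes. Among them were cones, Muller glia, ganglion cells, amacrine and horizontal cells, astrocytes, microglia, red blood cells, lens and pigment epithelium. With 2.79% of all genes called, 0 calls in lists this short do not show that the markers were stable. These lists had 0 to 4 genes higher and 0 to 6 lower at an unadjusted p under 0.05. Ganglion cell genes had a median of -0.17, with 8 above 0 and 18 below. At an unadjusted p under 0.05, 2 of them were higher and 6 lower. Nrl, the transcription factor that sets rod fate, was the one called of 23 rod genes (4.35%, against 2.79% of all genes). It was at 10.53 and 10.27 against 9.83 and 9.83 and rose by 0.57 ± 0.12 (adjusted p = 0.021). With the trend with gene size removed Nrl was not called (adjusted p = 0.0509). The rod list's median was -0.14, with 3 genes higher and 6 lower at an unadjusted p under 0.05. Prkca was the one called of 19 bipolar genes (5.26%, against 2.79% of all genes). In that list 5 genes were lower and 1 higher at an unadjusted p under 0.05. Bipolar genes summed to 11.67 and 11.53 (log2) in hyperoxia and 11.90 and 12.11 in room air, and the part of cell composition in the result for Prkca was not tested. The reactive glia marker Gfap was dim on all 4 arrays, at 5.18 and 4.79 against 4.60 and 4.75 (difference 0.31, adjusted p = 0.326).

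Of 51 genes of the cell cycle and mitosis 0 were called in limma on day 6, against 2.79% of all genes. In this list 1 gene was higher and 2 lower at an unadjusted p under 0.05. The list's median was -0.08, and 0.37 on day 5. The list summed to 13.05 and 13.08 (log2) in hyperoxia, between the room air arrays at 13.34 and 12.94, so the spread of the controls covered the difference. Of 45 genes of DNA replication 2 rose (4.44%, against 2.23% of all genes), and 0 were called with the trend with gene size removed. The 2 were Pcna, the sliding clamp (0.68 ± 0.16, adjusted p = 0.0372), and Rpa2, a single-strand binding protein (0.57 ± 0.14, adjusted p = 0.0472). Pcna had its lowest mean of the 8 groups, 8.79, in SD day 6 room air. Of 42 genes of ATF4 and endoplasmic reticulum stress, 2 rose and 1 fell, against 2.23% and 0.565% of all genes. The rises were those of Psph, an enzyme of serine synthesis, by 0.60 ± 0.11 (adjusted p = 0.0151) and of Ddit3, the transcription factor CHOP, by 0.70 ± 0.17 (adjusted p = 0.0436). Slc7a1, a cationic amino acid transporter, changed by -0.55 ± 0.13 (adjusted p = 0.0429), and Psph alone of the list was called with the trend with gene size removed. Gadd45a, a stress-induced growth arrest gene, was the one called of 22 p53 targets (0.67 ± 0.13, adjusted p = 0.0162). Ebp, a sterol isomerase, was the one called of 18 genes of cholesterol synthesis (0.68 ± 0.14, adjusted p = 0.0184). These single calls are 4.55% and 5.56% of their lists, against 2.79% of all genes. Abca1, the cholesterol exporter, fell by 0.48 ± 0.12 (adjusted p = 0.0383, or 0.127 with the trend with gene size removed). Bhlhe40, a transcriptional repressor counted among both HIF targets and clock genes, was at 6.13 and 6.18 against 5.53 and 5.61 (change 0.58 ± 0.14, adjusted p = 0.0354). It was the one called of 14 clock genes (7.14%, against 2.79% of all genes).

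**Figure D5:**
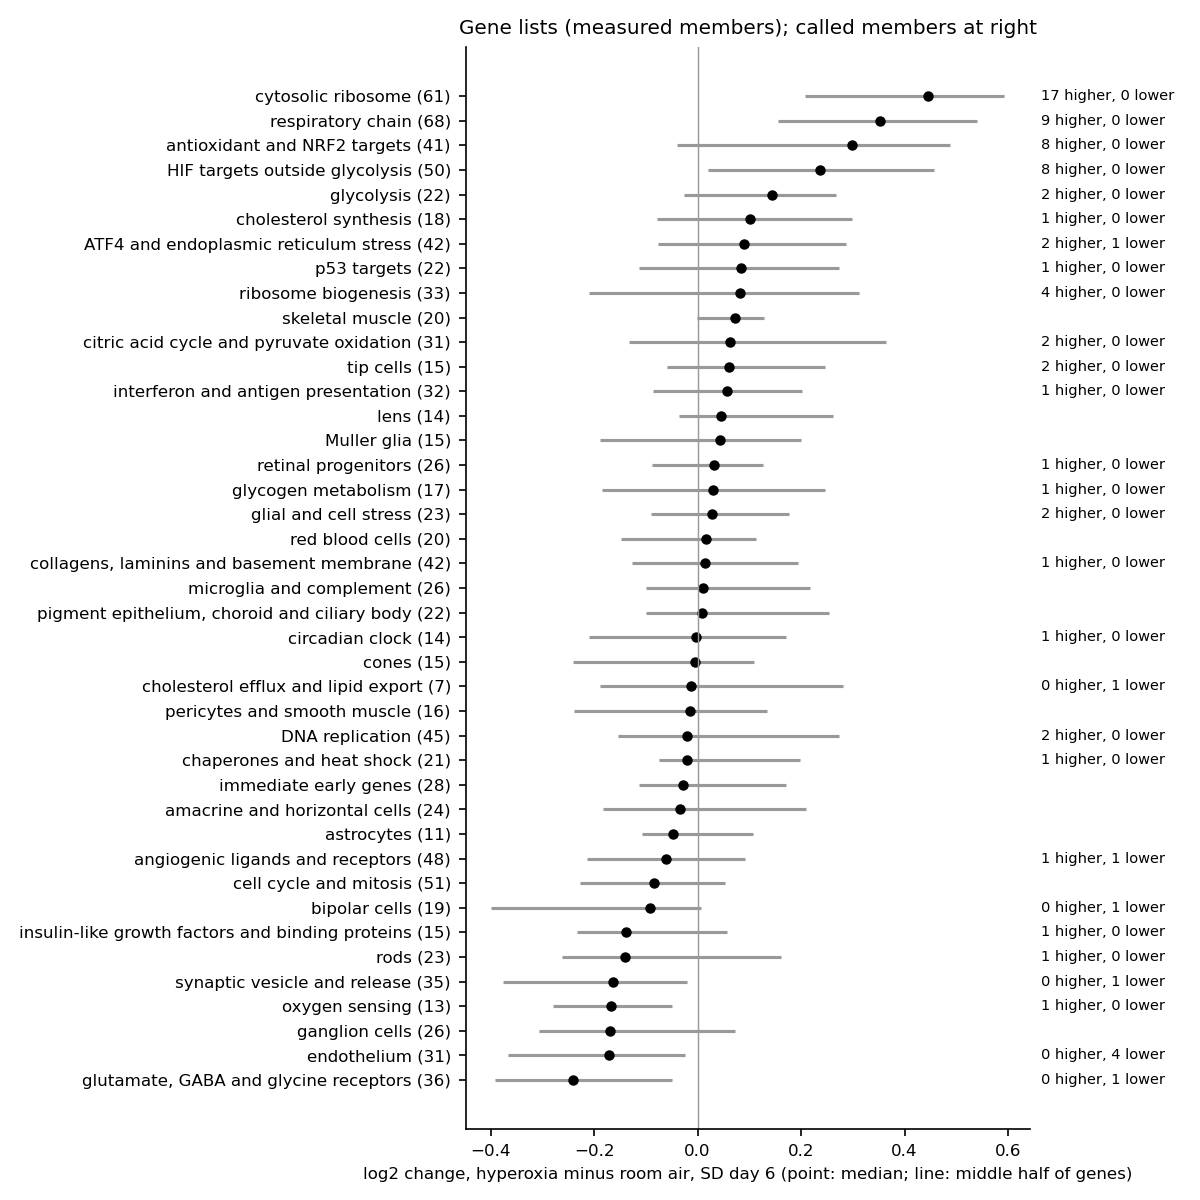
For each of 41 gene lists, with the number of measured members in brackets, the point is the median log2 change in SD retina on day 6 and the line covers the middle 50% of members. Numbers of called members stand at the right where there are any. Cytosolic ribosome (median 0.45), respiratory chain, antioxidant and HIF target lists lie highest, and the receptor list (median -0.24) lowest.

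In F344 retina on day 6, 170 genes (1.19%) were called, 49 higher (0.342%) and 121 lower (0.845%), on arrays not used for SD. Of the SD rises 14 were also called higher in F344, which is 4.39% of the SD rises and 28.6% of the F344 rises, and of the SD falls 4 were also lower, 4.94% and 3.31% of the lists. The shared rises included Fam162a, Higd1a and Cox7b, and the shared falls were Abca1, Slc38a5, Slc7a1 and Vac14, a scaffold of phosphoinositide synthesis. Slc38a5 changed by -0.93 in SD and -0.96 in F344, and Higd1a by 0.74 and 0.83.

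The effect itself differed between the strains in 8 genes (0.0559%), 7 with the larger value in SD (0.0489%) and 1 with the smaller (0.00698%). For all 7 the change was above 0 in SD and below 0 in F344, and 5 of them were called higher in SD and 3 called lower in F344. Slc35a4, a nucleotide sugar transporter family member, was at 7.83 and 7.89 in hyperoxia and 7.05 and 7.21 in room air in SD, and at 7.29 and 7.59 in hyperoxia and 7.87 and 8.22 in room air in F344. The difference between strains was 1.34 ± 0.20 (adjusted p = 0.0192). Fibp, an intracellular binding protein of fibroblast growth factor, differed by 1.29 ± 0.18 and Plbd2, a lysosomal phospholipase-like protein, by 1.21 ± 0.17 (adjusted p = 0.018 for each). The F344 day 6 room air mean of Fibp, 8.12, was the highest of the 8 groups, and its SD day 6 room air mean, 6.93, the lowest. Plbd2 was the one gene called in opposite directions in the strains, 0.62 in SD and -0.59 in F344. The gene with the smaller value in SD was Chrm2, which changed by -0.71 in SD and by 0.21 in F344 (adjusted p of the latter 0.322), a difference of -0.92 ± 0.15 (adjusted p = 0.033). Of the 8 groups, SD day 6 room air had the highest Chrm2 mean, 6.08.

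These strain differences were sensitive to single arrays and to scaling. With each array centred on its median or with quantile normalization applied again, 0 of the genes with the larger value in SD were called in limma, with 569 and 858 genes in that direction at an unadjusted p under 0.05. Without F344 day 6 hyperoxia replicate 1 there were 164 such genes and without replicate 2 there were 17, and 0 without either SD day 6 hyperoxia array, either F344 day 6 room air array or SD day 6 room air replicate 1. Of the HIF targets, 0 of 50 differed between strains, against 0.0559% of all genes, so this count does not show that the strains were alike. In F344, 3 of the 50 were called higher and 0 lower, against 0.342% and 0.845% of all genes. Higd1a and Fam162a were called there, at 0.83 and 0.66 (adjusted p = 0.0191 and 0.0491). Egln3 changed by 0.26 in F344 (adjusted p = 0.382) and Adm by 0.20 (adjusted p = 0.47).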

How the data were processed

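Pools of total retinal RNA were hybridised to 16 Affymetrix gene arrays of 1 colour, 2 per group. The authors deposited log2 expression values for 27342 probe sets, made with Partek 6.4 and RMA per the submitters' processing notes, which correct background, quantile-normalize and summarise probes; a shift shared by most genes is removed by this. Scanner files were not used here, and scan or hybridisation batches are not given in the sources used here. The number of arrays limits the precision.

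The platform annotation gave 1 symbol to 15097 probe sets, several to 323 and none to 11922; 15067 were matched by Entrez identifier to RefSeq (GRCr8) and 30 kept the annotated symbol. The brightest set was taken for 499 genes with several sets, leaving 14324 genes. With limma 3.58.1 in R 4.3.3, a model with a mean for each group was fitted over the 16 arrays (8 residual and 7.41 prior degrees of freedom), and p values were adjusted over all genes by Benjamini-Hochberg, with a threshold of 0.05. The contrasts were hyperoxia minus room air in SD on each day and in F344 on day 6, and the differences of the SD day 6 effect from the other 2. Errors after ± are standard errors. The fit was tested on simulated data.

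Named genes were the 15 largest called rises and falls with arrays apart, the 6 called members of each of 41 lists with the smallest p, 8 fixed genes (Edn2, Gfap, Slc2a1, Angpt2, Adm, Igf1, Epo and Vegfa), and the 8 largest called differences each way between days and strains; other list members named with values are examples chosen after their values were seen. Genes without a given symbol were skipped. The members and lists were chosen with earlier results of these data known. Replicate numbers were not used to pair the samples in the main fit, as the labels do not say what they stand for. Deviations of same-numbered arrays correlated above 0.1 in 8 of 28 pairs of groups, from -0.287 to 0.519, and at -0.0117 for SD on day 6. What same-numbered arrays may share was not tested. Alternatives were leaving out each array, the replicate number as a block, a filter on dim genes, other treatments of probe sets, other scalings, other variance models and fits on fewer arrays.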

Additional observations from a re-analysis of the deposited data

Results flagged for a closer look

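The oxygen effect in SD retina differed between day 6 and day 5 by the test of the difference itself in 16 genes, each with the higher value on day 6 (limma, adjusted over all genes). The differences on the log2 scale were 2.41 for Slc16a3 (adjusted p = 0.00586), 2.13 for Cox4i2 (0.0119), 2.05 for Egln3 (0.000623), 1.78 for Igfbp2 (0.00586) and 1.64 for Gipr (0.0182). They were 1.53 for Ak4 (0.00586), 1.49 for Pygl (0.00781), 1.41 for Pdk1 (0.00134), 1.34 for Ankrd37 (0.0119) and 1.27 for Mt1 (0.0106). Smaller differences were 1.24 for Vegfa (0.0116), 1.22 for Pfkfb3 (0.0155), 1.20 for P4ha2 (0.0301), 1.18 for Pfkl (0.021), 1.18 for Bnip3 (0.0106) and 1.03 for Mgarp (0.0155). Of the 16, P4ha2 and Pfkl lost the call in all 4 fits that left out 1 SD day 6 array.

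The day 6 effect differed between SD and F344 in 8 genes. The SD minus F344 differences were 1.34 for Slc35a4 (adjusted p = 0.0192), 1.29 for Fibp (0.018), 1.21 for Plbd2 (0.018) and 1.09 for Rnd2 (0.0192). They were 0.98 for Pkdcc, a secreted kinase (0.0192), 0.92 for Dpysl4, a cytoskeletal protein of growing axons (0.033), 0.92 for Rhob (0.033) and -0.92 for Chrm2 (0.033). Dpysl4 and Rhob differed through F344, where they changed by -0.81 and -0.62, against 0.11 and 0.29 in SD. The F344 day 6 room air mean of Dpysl4, 9.03, was the highest of the 8 groups, and its F344 day 6 hyperoxia mean, 8.22, the lowest.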

How the results depend on the processing

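With 1 array left out in turn, day 6 rises ranged from 0 to 618, falls from 0 to 376, genes with a called day difference from 2 to 20, genes with a larger effect in SD than F344 from 0 to 164 and with a smaller one from 0 to 17. The 319 rises became 546 with array weights, 200 with the 4 SD day 6 arrays alone, 576 with the 8 SD arrays, 75 with the 8 day 6 arrays and 210 without the span trend. The 81 falls became 254, 33, 253, 6 and 38 in these fits, 49 with a trended robust prior, 169 with centred arrays, 168 with quantile normalization again and 123 with every probe set tested. The 7 genes with a larger effect in SD became 11 with every probe set tested, 3 with a trended robust prior, and 0 with centred arrays, quantile normalization, array weights or day 6 arrays alone (569 to 971 at an unadjusted p under 0.05 in limma). The 1 gene with a smaller effect became 3 with every probe set tested, and 0 with the replicate block, the filter on dim genes, the trended robust prior, array weights or day 6 arrays alone (251 to 517 unadjusted). The causes were not tested. With the replicate number as a block 292 genes rose, 63 fell and 15 differed between days, and no other count moved by over 1.5 times. No named gene changed direction under these settings. For the day 6 effect this was largely fixed by the choice of genes. Most were named as called, with arrays apart, so leaving out 1 array could not reverse them. Leaving out an array of another group changed only the spread. With 1 array left out some single genes lost their call. Under the other settings single genes kept their side of the threshold in 1155 comparisons and lost it in 168. Medians of lists moved by over 1 SD between replicates in 45 comparisons with 1 array left out and in 8 under the other settings.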

Other observations

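Several of the largest rises on day 6 lie outside the gene lists. Fam136a, a small mitochondrial protein, rose by 1.06 ± 0.16 (limma adjusted p = 0.00758) and Pop7, a subunit of RNase P, by 1.02 ± 0.18 (adjusted p = 0.0143). The histone genes H2ac21 and H2az2 rose by 1.27 ± 0.29 and 1.02 ± 0.19 (adjusted p = 0.0303 and 0.0146), and as members of a family of near-identical copies they are uncertain. Fam136a, H2ac21 and H2az2 each had their lowest mean of the 8 groups in SD day 6 room air. Among the falls, Bmp15, a growth factor best known from the ovary, was at 5.47 and 5.39 in hyperoxia and 6.13 and 6.28 in room air (change -0.77 ± 0.13, adjusted p = 0.0123). Its mean in hyperoxia, 5.43, was dim.

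For the 38 called genes with more than 1 probe set, 86 of the 87 other sets had the same sign, and 57 of them were called as well when tested singly.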
